A study of Mus musculus with 30 samples.

Results

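Among 30 cultures of mouse fetal testis, 15 had received only the DMSO vehicle, and these vehicle libraries differed widely in a score that sets late against early fetal germ cell transcripts. Each library was given a score, the mean log2(CPM + 1) of Dnmt3l, Spocd1, Tdrd9 and Piwil4 minus that of Sox2, Nanog, Dppa5a and Dppa3, with CPM (counts scaled by library size) taken from total counts. The 5 highest and the 5 lowest of the 15 vehicle libraries, 10 libraries of the 30 in the series, were then compared over all genes other than these 8. The libraries were thus selected on measured values, so every difference between the ends is given as a description and carries no test. Tests were kept for the 15 treated libraries, which had no part in the selection, and for the numbers in the sample titles.

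In the fetal mouse testis, male germ cells (prospermatogonia) leave a pluripotency-like state, stop dividing and later rewrite their DNA methylation. Early cells express pluripotency factors such as Nanog and Sox2, and receive Nodal signals whose readouts include Lefty1 and Lefty2. Later cells switch on the piRNA pathway, in which PIWI proteins load small RNAs against transposons, together with Dnmt3l, the cofactor of de novo DNA methylation.

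All cultures shared the strain and the procedure. Testes came from C57BL/6 fetuses on gestational day 14, were freed of the mesonephros, and were kept for 24 h on culture inserts in medium with DMSO. The vehicle group (n = 15) received no further compound. The treated groups received 100 µM mono-(2-ethylhexyl) phthalate (MEHP, a plasticizer metabolite, n = 6), 1 µM all-trans retinoic acid (ATRA, n = 5), or both compounds at these doses (MEHP + ATRA, n = 4). Whether any of the cultures shared a fetus or a litter is not stated in the labels, and the p-values below reflect no more than the spread among the libraries.

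Total counts ran from 17551454 to 29306917 over the 30 libraries. They spanned 17551454 to 22699662 at the high end of the score and 18338470 to 29306917 at the low end. The mitochondrial share of counts was 1.04% to 1.13% at the high end and 1.00% to 1.43% at the low end. Germ cell and Sertoli cell markers were present in all libraries described, as the values below show. These are whole testes, so fewer cells of a type and less RNA per cell cannot be told apart.

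The vehicle scores ran from -0.53 to 5.49 with a median of 2.11, on a log2 scale. The high end held vehicle replicates 3, 12, 10, 8 and 5, with scores of 5.49, 3.94, 3.77, 2.82 and 2.41. The low end held replicates 13, 6, 9, 15 and 7, with scores of -0.53, -0.22, 1.19, 1.54 and 1.56. Neither end is set off by a gap. The last library inside the high end scored 2.413 and the first outside it 2.393, and at the low end the corresponding scores were 1.561 and 1.696. Scores in the treated libraries covered much of the same span, from -0.19 to 5.36 with MEHP and from -0.65 to 3.64 with ATRA, but only from 0.57 to 1.21 with MEHP + ATRA.

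**Figure D1:**
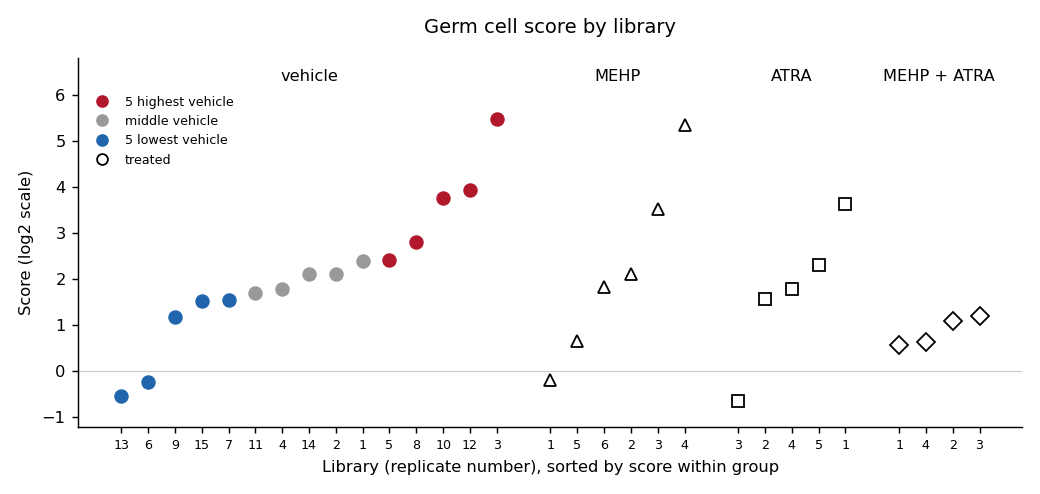
Score of each of the 30 libraries (vertical axis, log2 scale), sorted within the vehicle, MEHP, ATRA and MEHP + ATRA groups (horizontal axis, replicate numbers in accession order). Filled red and blue points are the 5 highest and 5 lowest vehicle libraries, grey points the 5 between them, open symbols the treated libraries; vehicle replicate 3 and MEHP replicate 4 are the highest of their groups, at 5.49 and 5.36.

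The 8 genes of the score describe what was selected. Dnmt3l averaged 89.4 CPM ± 33.6 (SD, n = 5) at the high end and 21.2 ± 11.7 (n = 5) at the low end. Spocd1, a partner of the nuclear piRNA machinery, averaged 96.0 ± 30.2 against 28.7 ± 17.4 CPM, and Tdrd9, a helicase of the same pathway, 185 ± 46.2 against 60.7 ± 26.9 CPM. Piwil4, the nuclear PIWI protein, averaged 152 ± 26.8 against 67.5 ± 33.4 CPM. The early genes ran the other way. Sox2 averaged 5.45 ± 3.44 CPM at the high end and 13.8 ± 3.41 at the low end, and Nanog 2.79 ± 0.71 against 6.44 ± 1.15 CPM. Dppa5a averaged 11.8 ± 6.03 against 27.7 ± 2.36 CPM, and Dppa3 41.7 ± 23.0 against 74.1 ± 3.66 CPM.

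Outside these 8 genes the difference between the ends was lopsided. A gene was counted when the 5 and 5 libraries did not overlap and the means differed at least 2-fold. Of 19315 genes, 2.14% were higher at the high end, made up of 260 genes with a mean level under 1 on the log2 CPM scale and 153 at 1 or more. Only 18 genes were lower (0.0932%). Without the fold limit, 954 genes were higher (4.94%) and 348 lower (1.80%). These counts moved with the choice of libraries. With 4 libraries at each end they were 731 higher and 51 lower, and with 6 they were 322 and 4. Without vehicle replicate 5 they were 628 and 40, without replicate 8 the lower count was 31, without replicate 6 it was 28, and with Dnmt3l out of the score it was 6.

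The treated libraries gave a test. A slope of each gene's log2 expression on the library's own score was fitted in the 15 treated libraries, with treatment as a term. At an adjusted p under 0.05 in edgeR's quasi-likelihood test, 2127 genes rose with the score (11% of all genes) and 1025 fell (5.31%). An unadjusted p under 0.05 was found for 5829 of 19315 genes, in either direction. Of the genes at least 2-fold higher at the high end of the vehicle series, 387 (93.7%) rose with the score in the treated libraries and 0 fell. Of the 18 lower genes, 12 (66.7%) fell and 0 rose. Treated and vehicle libraries of the same first title number had similar scores, as given below. Whether they share fetuses or litters is not stated, so the 2 sets are not known to be separate material. If libraries of the same number share material, the p-values of this fit may be too small. MEHP replicate 4, the treated library with the highest score, carried part of the counts. Without it 1323 genes rose (6.85%) and 312 fell (1.62%), and 310 of the higher vehicle genes (75.1%) rose and 8 of the 18 lower ones (44.4%) fell. Without any MEHP library 225 of the higher genes (54.5%) rose and 1 fell, beside 4.08% of all genes rising. A replicate block on the first title number within a range left 4 residual degrees of freedom. With it 106 genes rose (0.549%) and 12 fell (0.0621%), among them 62 of the higher vehicle genes (15.0%) and 2 of the lower ones (11.1%). The falling count was also 620 without ATRA replicate 1 and 536 without ATRA replicate 3. In edgeR, a slope that differs between the 3 treatments was called for 0 of 19315 genes, and 842 had an unadjusted p under 0.05. That fit left 9 residual degrees of freedom. MEHP + ATRA scores span only 0.57 to 1.21, so a slope that differs in that group could hardly be seen. No other tool was run for this test.

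**Figure D2:**
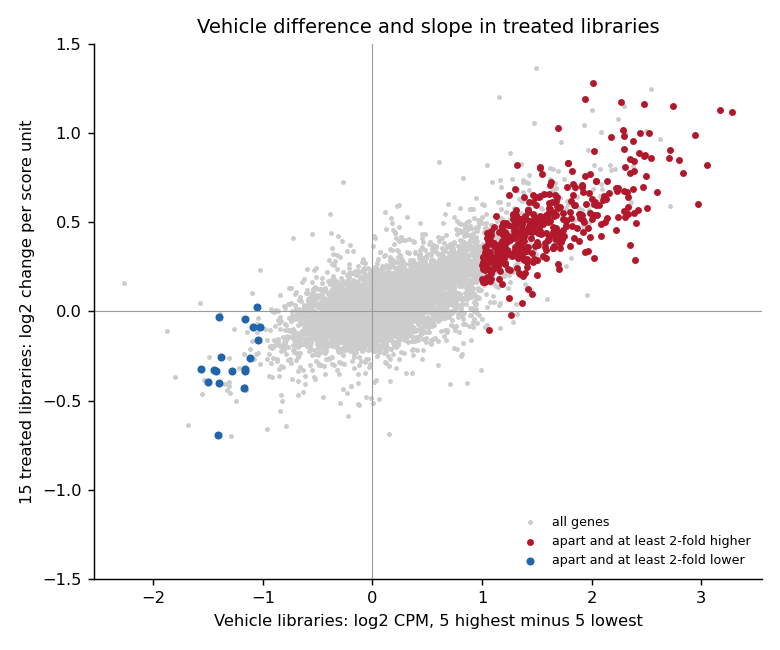
Each point is 1 of 19315 genes: the difference in mean log2 CPM between the 5 highest and 5 lowest vehicle libraries (horizontal axis) and the slope in the 15 treated libraries, in log2 expression per unit of score (vertical axis). Red points are the genes apart and at least 2-fold higher (2.14% of all), blue points the 18 apart and at least 2-fold lower; the red points lie almost wholly above a slope of 0.

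The piRNA and DNA methylation genes that passed the test all rose with the score. Of 25 measured members beyond the score genes, 11 were higher at the high end with no overlap and 0 were lower. The median difference was 0.38 on the log2 scale against -0.01 over all genes. Counts in this and the following lists stand beside the shares of all genes. Those were 4.94% apart and higher, 1.80% apart and lower, and 11% rising and 5.31% falling in the treated libraries. In the treated libraries 14 of 25 rose with the score and 0 fell; without MEHP replicate 4 the count was also 14. No member had a negative slope with an unadjusted p under 0.05, and DESeq2 and limma-voom also gave 14 rising and 0 falling. The 11 genes apart were Fkbp6, Henmt1, Mael, Morc1, Mov10l1, Piwil1, Piwil2, Tdrd1, Tdrd7, Tex15 and Zcwpw1. Tdrd5 (75.4 against 91.2 CPM), Tdrd12 (17.9 against 22.2) and Uhrf1 (173 against 178) averaged lower at the high end, with overlap. Their slopes did not pass (adjusted p = 0.456, 0.763 and 0.255). The summed level of the list was 2396 to 2670 CPM at the high end and 1699 to 2237 CPM at the low end.

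Promoter sequences are shown for 3 members of this list that were apart and rose, picked because they hold the motif marked in them, with RefSeq as the source and GRCm38.p6 as the build. Each is the 250 bases before the start site, 5′ to 3′ on the gene's strand, and capitals mark CACGTG, the core of an E-box, the site class of basic helix-loop-helix factors. The motif reads the same on both strands and no other motif was searched. Tdrd1 is at chr19:56825959-56826208 (plus strand), Mael at chr1:166238745-166238994 (minus strand) and Fkbp6, which carries the motif 2 times, at chr5:135350045-135350294 (minus strand).
Tdrd1: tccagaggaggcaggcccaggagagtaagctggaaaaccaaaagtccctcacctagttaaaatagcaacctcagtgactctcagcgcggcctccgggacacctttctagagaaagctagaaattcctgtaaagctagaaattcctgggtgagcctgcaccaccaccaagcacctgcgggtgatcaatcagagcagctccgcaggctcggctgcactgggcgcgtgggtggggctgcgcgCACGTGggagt
Mael: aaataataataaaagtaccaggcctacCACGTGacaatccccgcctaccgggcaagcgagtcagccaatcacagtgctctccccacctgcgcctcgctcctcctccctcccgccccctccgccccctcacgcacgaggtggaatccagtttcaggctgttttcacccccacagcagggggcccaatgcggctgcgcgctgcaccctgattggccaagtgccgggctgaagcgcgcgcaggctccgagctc
Fkbp6: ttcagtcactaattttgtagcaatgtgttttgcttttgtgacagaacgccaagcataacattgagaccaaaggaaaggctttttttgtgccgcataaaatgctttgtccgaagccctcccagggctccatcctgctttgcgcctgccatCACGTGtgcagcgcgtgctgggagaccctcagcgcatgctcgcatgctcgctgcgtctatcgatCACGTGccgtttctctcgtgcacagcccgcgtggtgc

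In this window, 7 of the 20 members of the list with a promoter in the table (35.0%) held CACGTG. The share was 8.02% over the promoters of all genes tested that had one (1064 of 13270). It was 9.06% for genes apart and at least 2-fold higher (26 of 287) and 10.2% for genes rising in the treated libraries, both near that of all genes. Genes without a promoter in the table are not covered. The meiosis, Sertoli cell and pluripotency lists had 22.7%, 14.3% and 11.1%. The 7 of the piRNA list were Ddx4, Fkbp6, Mael, Mov10l1, Piwil1, Pld6 and Tdrd1. A match describes letters and shows no binding. Of the 7, 2 (Ddx4 and Pld6) did not pass as rising with the own score over all treated libraries. Henmt1, Tdrd7 and Zcwpw1 were apart and rose, and their windows lack the motif.

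Piwil2 encodes the cytoplasmic PIWI protein of fetal germ cells. From the highest score down, the 5 high libraries had 267, 282, 274, 224 and 196 CPM, and from the lowest score up, the 5 low libraries had 80.5, 73.4, 135, 163 and 168 CPM. The ends did not overlap, and the 2 libraries with scores below 0 were the lowest. Its slope in the treated libraries was 0.40 ± 0.04 (SE) log2 per unit of score (adjusted p = 1.33e-06).

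Tdrd1, a Tudor scaffold of the piRNA granule, had 127, 146, 135, 125 and 120 CPM at the high end and 43.4, 46.3, 77.7, 95.7 and 91.0 CPM at the low end, in the same order. All high libraries lay above all low ones, and the 2 lowest were again those with scores below 0. Its slope was 0.40 ± 0.04 (adjusted p = 5.83e-06). Fkbp6, a chaperone partner of the pathway, averaged 156 ± 23.6 against 83.8 ± 24.8 CPM (SD, n = 5 each; slope 0.34, adjusted p = 2.19e-06). Mov10l1, the helicase that starts piRNA processing, averaged 119 ± 12.1 against 68.3 ± 19.8 CPM (slope 0.33, adjusted p = 6.12e-06). Mael, a nuage component, averaged 166 ± 19.3 against 97.6 ± 25.2 CPM (slope 0.31, adjusted p = 4.12e-05).

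The catalytic methyltransferases overlapped between the ends. Dnmt3a averaged 483 ± 23.5 CPM at the high end and 430 ± 53.5 at the low end, with overlapping libraries. Its slope of 0.05 ± 0.02 passed the threshold (adjusted p = 0.0238), but not without MEHP replicate 1 (0.0689), ATRA replicate 1 (0.0505) or ATRA replicate 3 (0.0976). Dnmt3b averaged 19.6 ± 2.51 against 18.4 ± 2.00 CPM, with a slope of -0.01 (adjusted p = 0.89).

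Transcripts that mark germ cells at all stages did not share 1 direction. Ddx4, the germ cell helicase, had 89.5, 141, 117, 131 and 119 CPM at the high end and 85.1, 131, 115, 117 and 120 CPM at the low end. The ends overlapped fully, and the highest-scoring and lowest-scoring libraries were the lowest of their ends. Its slope was 0.11 ± 0.04 (adjusted p = 0.0747). Without MEHP replicate 2 the slope was 0.12 and passed (adjusted p = 0.0164). Dazl, an RNA-binding germ cell licensing factor, had 55.9, 111, 90.2, 117 and 120 CPM at the high end and 150, 136, 131, 143 and 125 CPM at the low end. The ends were apart, with the library of highest score far below the rest. Dazl fell with the score in the treated libraries (slope -0.13 ± 0.03, adjusted p = 0.00512). Kit, the receptor of migrating germ cells that Leydig cells also express, averaged 68.9 ± 5.45 against 64.5 ± 4.81 CPM, with a slope of 0.00 (adjusted p = 0.951).

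Of the 18 pan germ cell genes measured, 5 were higher with no overlap and 2 lower (Dazl and Elavl2), and in the treated libraries 8 rose and 2 fell. Mael and Tdrd1, which also belong to the piRNA list, are among those that rose. Dnd1, which partners NANOS2, rose with a slope of 0.30 ± 0.04 (adjusted p = 2.19e-05), and averaged 145 ± 23.9 against 108 ± 36.2 CPM. Tuba3b, a testis alpha-tubulin, averaged 88.7 ± 25 against 32.7 ± 13.6 CPM (slope 0.29, adjusted p = 1.24e-05). Its near-identical copy Tuba3a could share reads with it, so the split between the copies is uncertain. The summed level of the list was 1046 to 1373 CPM at the high end and 752 to 1083 CPM at the low end, and the part of germ cell number in any result here was not tested.

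Male differentiation genes went both ways. Of 23 measured, 4 were higher with no overlap (Ddx25, Rhox9, Sohlh1 and Tex101) and 3 lower (Etv5, Nanos3 and Rbmxl2). In the treated libraries 9 rose and 4 fell, beside 11% and 5.31% of all genes. At an unadjusted p under 0.05, 9 rose and 9 fell, beside 5829 of 19315 genes in either direction. Rhox9, at 0.55 against 0.28 CPM, had a slope of the other sign that did not pass (-0.21, adjusted p = 0.0725). Etv5 did not pass either (adjusted p = 0.123). Sohlh1, a transcription factor of differentiating germ cells, had 55.8, 54.7, 55.6, 35.0 and 31.5 CPM at the high end and 4.22, 5.77, 13.6, 21.3 and 22.1 CPM at the low end. It averaged 3.47-fold higher at the high end, with no overlap and with the 3 highest-scoring libraries level with each other. Its slope was 0.61 ± 0.05 (adjusted p = 5.69e-07). Its relative Sohlh2 ran the opposite way, at 3.51 ± 0.85 against 6.90 ± 2.58 CPM with overlapping libraries, and fell in the treated libraries (slope -0.37 ± 0.04, adjusted p = 6.75e-06). Ddx25, a germ cell helicase, and Tex101, a germ cell surface protein, had slopes of 0.28 (adjusted p = 5.94e-06) and 0.29 (adjusted p = 1.08e-05).

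Nanos2, the RNA-binding protein that holds male germ cells on the male path, had 0.368, 1.47, 3.37, 5.90 and 5.72 CPM at the high end and 8.83, 7.84, 7.52, 4.98 and 6.44 CPM at the low end. The ends overlapped, and the 2 libraries of highest score had the least. Its slope was -0.39 ± 0.09 (adjusted p = 0.00564), and without MEHP replicate 4 the adjusted p was 0.0712. Nanos3, which protects early germ cells, averaged 5.58 ± 2.44 against 9.69 ± 1.24 CPM with no overlap. Its slope of -0.26 ± 0.07 had an adjusted p of 0.0196, which became 0.252 without MEHP replicate 4, 0.0527 without ATRA replicate 1 and 0.0513 without MEHP replicate 5.

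Pluripotency genes beyond the 4 in the score were lower in part. Of 27 measured, 0 were higher and 4 lower with no overlap (Esrrb, Gdf3, L1td1 and Tet1), and the median difference was -0.20. In the treated libraries 6 fell and 2 rose, beside 5.31% and 11% of all genes. With the slope on the vehicle score described below, 0 fell and 3 rose, so the falls were not called there. L1td1, an RNA-binding protein of pluripotent cells, had 1.53, 1.84, 1.94, 1.51 and 2.00 CPM at the high end and 6.48, 6.3, 3.79, 4.27 and 4.17 CPM at the low end. The high libraries were level and all low libraries stood above them (slope -0.33 ± 0.05, adjusted p = 0.000185). Prdm14, a regulator of germ cell specification, averaged 1.03 ± 0.39 against 2.79 ± 1.15 CPM (slope -0.41, adjusted p = 0.000377). Dppa2, an early chromatin factor, averaged 2.29 ± 1.16 against 3.34 ± 0.82 CPM (slope -0.31, adjusted p = 0.00266).

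Pou5f1, which encodes OCT4, had 56.2, 90.0, 125, 125 and 127 CPM at the high end and 104, 117, 123, 133 and 131 CPM at the low end. Only the 2 libraries of highest score were below the range of the low end, and the slope was -0.05 ± 0.05 (adjusted p = 0.528). Klf4, another reprogramming factor, rose with the score in the treated libraries (slope 0.15 ± 0.03, adjusted p = 0.00103), with 14.9 ± 1.78 against 13.2 ± 2.19 CPM in the vehicle ends.

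Nodal signalling genes that passed the test all fell. Of 11 measured, 3 were lower with no overlap, Lefty1 and Lefty2 among them, and 0 higher, and in the treated libraries 5 fell and 0 rose, with 0 rising at an unadjusted p under 0.05 and 0 rising by DESeq2 or limma-voom. Nodal, the ligand, had 0.737, 0.895, 1.03, 1.36 and 1.95 CPM at the high end and 2.46, 1.80, 1.35, 3.17 and 2.13 CPM at the low end, with overlap. Its slope was -0.56 ± 0.10 (adjusted p = 0.000952). Foxh1, the DNA-binding partner of SMAD2, averaged 0.54 ± 0.14 against 1.13 ± 0.50 CPM (slope -0.50, adjusted p = 6.44e-05).

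Lefty1, a feedback inhibitor of the pathway, had 1.79, 3.06, 2.23, 3.23 and 3.15 CPM at the high end and 8.38, 5.30, 4.65, 7.28 and 5.37 CPM at the low end. The ends were well apart, and Lefty1 fell in the treated libraries (slope -0.43 ± 0.05, adjusted p = 1.15e-05). Lefty2, its relative, averaged 7.83 ± 1.80 against 12.4 ± 1.97 CPM (slope -0.24, adjusted p = 0.00213).

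**Figure D3:**
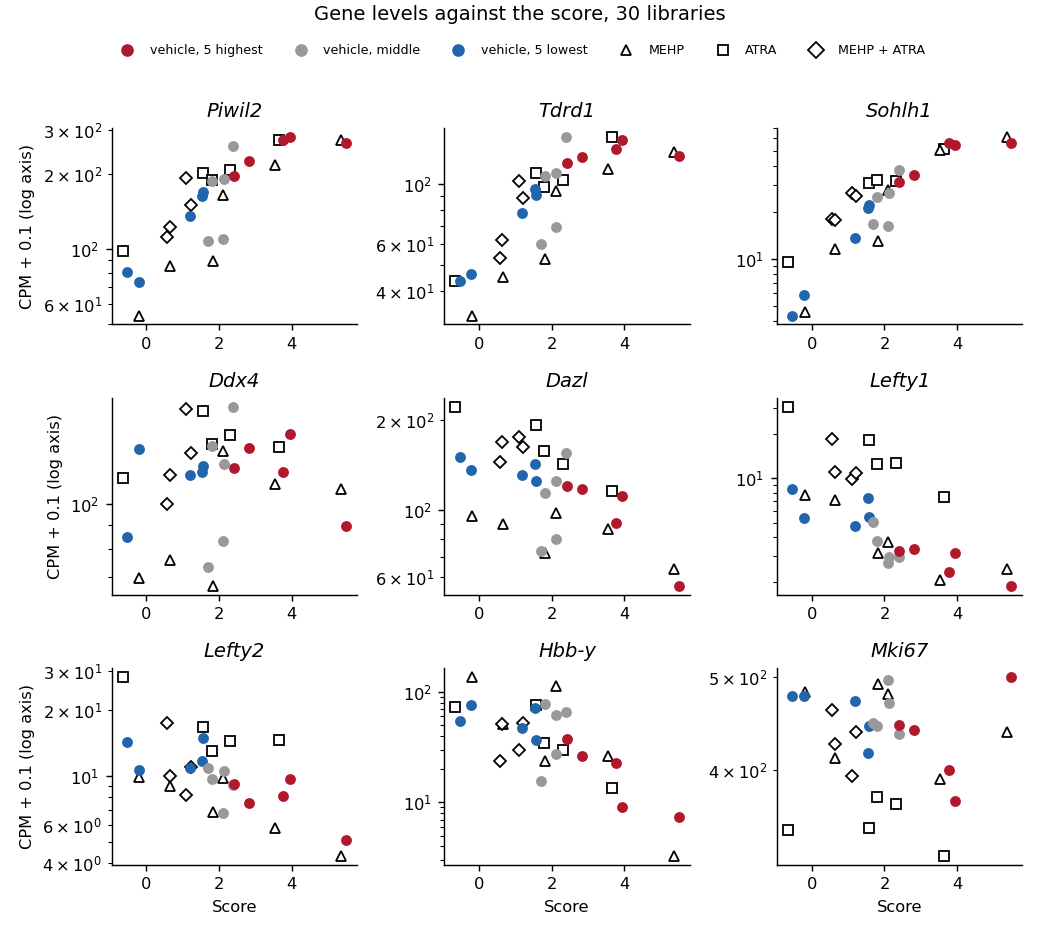
Level of 9 genes (vertical axis, CPM + 0.1 on a log axis) against the score (horizontal axis, log2 scale) in all 30 libraries; filled circles are vehicle libraries by end and open symbols the treated ones. Piwil2, Tdrd1 and Sohlh1 climb with the score, Lefty1, Lefty2 and Hbb-y decline, and Ddx4 and Mki67 show no single direction.

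Meiosis genes were mixed. Of 25 measured, 4 were higher with no overlap (Ccnb3, Meioc, Stag3 and Tex12) and 0 lower. In the treated libraries 7 rose and 2 fell, beside 11% and 5.31% of all genes. Meioc did not pass there (slope 0.02, adjusted p = 0.835). Stag3, the meiotic cohesin subunit, averaged 109 ± 28.0 against 60.0 ± 10.3 CPM (slope 0.24, adjusted p = 0.000246). Tex12, of the synaptonemal complex, averaged 7.55 ± 1.11 against 5.13 ± 0.92 CPM (slope 0.24, adjusted p = 0.000714). Mei1, a gene of meiotic break formation, had 5.68, 3.95, 2.74, 1.56 and 0.532 CPM at the high end and 0.173, 0.106, 0.162, 0.657 and 0.444 CPM at the low end. Only vehicle replicate 5, the last of the high end, overlapped the low libraries (slope 0.59 ± 0.07, adjusted p = 6.87e-06).

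Stra8, the retinoic acid target that starts the meiotic programme, did not follow those genes. It had 1.74, 3.85, 3.31, 3.63 and 1.24 CPM at the high end and 8.17, 1.85, 9.03, 2.08 and 3.91 CPM at the low end. Replicates 13 and 9 stood above all others and the rest overlapped. In the treated libraries, with treatment as a term, Stra8 fell with the score (slope -0.39 ± 0.05, adjusted p = 1.45e-05). Rec8, a meiotic cohesin kleisin, averaged 11.7 ± 4.02 against 10.002 ± 2.91 CPM, with a slope of -0.12 (adjusted p = 0.127). Without MEHP replicate 4 the slope of Rec8 was -0.23 and passed (adjusted p = 0.00977).

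The 15 largest rises between the ends, among genes with a mean of at least 2 CPM, averaged 3.36 to 16.6 CPM at the high end. Cdhr2, a cadherin of the intestinal brush border, had 6.26, 5.85, 3.82, 2.42 and 1.33 CPM at the high end and 0.139, 0.053, 0.595, 0.602 and 1.07 CPM at the low end. The levels descended with the score in the high libraries, and the lowest high library lay just above the highest low one. It averaged 8.02-fold higher, and its slope was 0.99 ± 0.07 (adjusted p = 4.87e-08). Dpep3, a membrane dipeptidase of the testis, had 25.3, 22.6, 16.2, 10.3 and 8.52 CPM at the high end and 1.49, 1.64, 3.68, 4.71 and 4.4 CPM at the low end (slope 0.69 ± 0.06, adjusted p = 1.99e-07).

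The transporters in this group were Abcb11, the bile salt exporter, at 4.26 against 0.73 CPM, Abca13 at 4.01 against 0.94 CPM and Abca17 at 3.36 against 0.88 CPM. The genes of cilia were Hydin, of the axonemal central pair, at 9.71 against 1.83 CPM and Ccdc113 at 3.83 against 0.35 CPM. The genes best known from neurons and sensory cells were Chl1, an adhesion molecule, at 3.58 against 0.88 CPM, Brinp2 at 4.45 against 0.85 CPM and Tmc2, a channel of hair cells, at 8.46 against 2.24 CPM. Arhgef16, a guanine nucleotide exchange factor, averaged 11.6 against 2.55 CPM, and Nol4 7.98 against 1.61 CPM. Crtam, a lymphocyte adhesion molecule, averaged 6.40 against 1.30 CPM, Adtrp 4.62 against 0.87 CPM and Tmem63c 4.18 against 1.00 CPM. All 15 rose with the score in the treated libraries, with slopes from 0.50 (Tmem63c) to 0.99 (Cdhr2) and a largest adjusted p of 0.000293 (Chl1), and each kept that call when any 1 treated library was left out.

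The higher genes were mostly of low abundance. Their median level over the libraries was 0.31 on the log2 CPM scale, against 3.98 over all 19315 genes. Protein-coding genes made up 91.8% of them against 82.2% of all genes, and 3.87% lay on the X chromosome against 3.91%. Promoter CpG content is not compared over the set. The promoter table held 287 of these genes (69.5%) and 68.7% of all genes tested, so a comparison would leave the rest uncovered.

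The 15 largest falls were smaller than the rises. Ap3b2, an adaptor subunit best known from neurons, had 3.79, 7.06, 5.94, 11.2 and 12.3 CPM at the high end and 27.1, 15.6, 16.2, 20.4 and 20.9 CPM at the low end (slope -0.40 ± 0.04, adjusted p = 5.92e-06). Pmaip1, the BH3-only death gene NOXA, had 6.42, 17.0, 13.5, 23.7 and 22.4 CPM at the high end and 41.1, 46.5, 32.6, 38 and 40.5 CPM at the low end (slope -0.26 ± 0.04, adjusted p = 0.000458). Both were apart with every low library above every high one. Hesx1, a homeobox gene, averaged 1.36 ± 0.58 against 4.05 ± 1.71 CPM (slope -0.40, adjusted p = 7.65e-05).

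Of the other falls, Lefty1, L1td1 and Nanos3 are described above. Glis3, a zinc finger gene, averaged 12.4 against 21.1 CPM, Liph, a lipase, 15.2 against 27.0 CPM and Nphs1, which encodes nephrin, 5.63 against 11.1 CPM. Each of these 3 fell in the treated libraries (adjusted p = 0.00532, 0.0176 and 0.012) but not without MEHP replicate 4 (0.0621, 0.209 and 0.131), and Liph also not without ATRA replicate 1 (0.056). Triml1, at 2.02 against 3.64 CPM, fell with an adjusted p of 0.0367, and leaving out MEHP replicate 1, 3, 4 or 5 or ATRA replicate 1 gave 0.0694, 0.0594, 0.291, 0.0668 and 0.101. Gng13, at 1.59 against 3.14 CPM, fell with 0.0133, and with 0.106 without ATRA replicate 3. Triml2 and Esrrb had negative slopes that did not pass (adjusted p = 0.218 and 0.198).

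**Figure D4:**
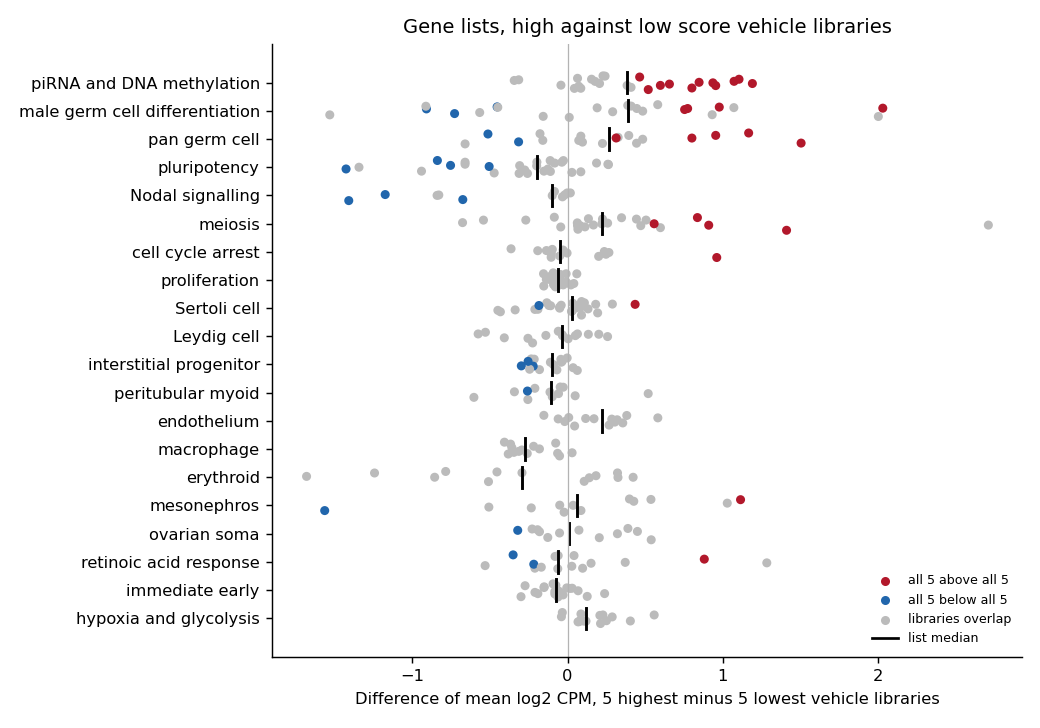
Difference in mean log2 CPM, 5 highest minus 5 lowest vehicle libraries (horizontal axis), for the members of 20 gene lists (vertical axis; points are scattered vertically for legibility). Red and blue points are genes whose 5 and 5 libraries did not overlap, black bars the list medians; the piRNA list holds 11 red and 0 blue points, Nodal signalling 3 blue, and proliferation neither.

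Cell cycle genes differed little between the ends. Of 24 proliferation genes, 0 were apart in either direction. With the slope on the vehicle score described below, edgeR called 0 rising and 2 falling, Pcna (adjusted p = 0.0263) and Mcm4 (adjusted p = 0.0466). On the libraries' own score edgeR called 0 rising and 0 falling in the treated libraries. At an unadjusted p under 0.05 there were 0 rising and 4 falling, beside 5829 of 19315 genes in either direction. DESeq2 called 1 falling and limma-voom 0. Mki67, the proliferation antigen, had 499.8, 371, 399, 441 and 446 CPM at the high end and 477, 478, 472, 416 and 445 CPM at the low end (slope -0.02, adjusted p = 0.485). Of 15 arrest genes, 1 was higher with no overlap, Cdkn2a, which encodes p16 and p19ARF. Cdkn2a had 20.6, 17.9, 14.5, 14.4 and 12.9 CPM at the high end and 6.54, 5.77, 9.30, 10.9 and 8.93 CPM at the low end (slope 0.26 ± 0.04, adjusted p = 0.000125). In all, 2 of 15 rose and 3 fell in the treated libraries, or 1 and 2 without MEHP replicate 4. Over all genes 11% rose and 5.31% fell, or 6.85% and 1.62% without that library. Cdkn1b, which encodes p27, averaged 76.7 ± 2.30 against 82.6 ± 4.68 CPM (slope 0.00, adjusted p = 0.953). Cdkn1c, which encodes p57, averaged 135 ± 26.7 against 171 ± 14.4 CPM, with an adjusted p of 0.0194 for its slope of -0.10 and of 0.369 without MEHP replicate 4.

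Somatic lists differed among themselves, and their counts are read against all genes, of which 4.94% were apart and higher, 1.80% apart and lower, 11% rising and 5.31% falling in the treated libraries. Of 26 Sertoli cell genes, 1 was higher and 1 lower with no overlap, and the summed level was 3860 to 4878 CPM at the high end and 3951 to 4779 CPM at the low end. In the treated libraries 1 rose and 2 fell, and without MEHP replicate 4 0 rose and 1 fell. Amh, the Sertoli cell hormone, averaged 1099 ± 156 against 1074 ± 151 CPM (slope -0.09, adjusted p = 0.0879; 0.0305 without MEHP replicate 1). Sox9, the sex-determining factor, averaged 61.6 ± 10.7 against 66.7 ± 9.77 CPM (slope -0.03, adjusted p = 0.643). Dhh, a Sertoli cell signal, and Cyp26b1, which degrades retinoic acid, had slopes of -0.05 (adjusted p = 0.249) and -0.07 (adjusted p = 0.112; 0.0471 without MEHP + ATRA replicate 1). Wt1, a Sertoli cell regulator, averaged 148 ± 5.92 against 169 ± 11.5 CPM, apart, with an adjusted p of 0.0663 for its slope of -0.06 and of 0.0241 without MEHP replicate 2. Cst9, a Sertoli cell cystatin, fell with the score (slope -0.12 ± 0.02, adjusted p = 0.00157).

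Of 15 Leydig cell genes, 0 were apart and edgeR called 0. At an unadjusted p under 0.05, 4 fell, beside 5829 of 19315 genes in either direction, and 0 fell by DESeq2 and 1 by limma-voom. Cyp17a1, a steroidogenic enzyme, averaged 113 ± 33.4 against 162 ± 19.4 CPM, with a slope of -0.16 (adjusted p = 0.071). Leaving out MEHP replicate 1 or 2 gave an adjusted p of 0.0169 or 0.0481. Insl3, a Leydig cell hormone, averaged 232 ± 11.3 against 197 ± 35.6 CPM (slope 0.07, adjusted p = 0.27). Of 16 interstitial progenitor genes, 3 were lower with no overlap (Maf, Nr2f2 and Wnt5a), and 5 fell and 0 rose in the treated libraries, or 2 and 0 without MEHP replicate 4. Maf, a transcription factor of that lineage, averaged 93.7 ± 5.04 against 115 ± 10.9 CPM (slope -0.09, adjusted p = 0.000827). Nr2f2, which marks the same cells, averaged 199.6 ± 11.7 against 233 ± 21.4 CPM (slope -0.05, adjusted p = 0.0128; 0.105 without MEHP replicate 1).

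For other cell types the counts were near those shares of all genes or rested on 1 or 2 genes. In the treated libraries 1 of 12 peritubular myoid genes rose and 1 of 14 endothelial genes rose and 1 fell, calls that were all lost without MEHP replicate 4, and 1 of 12 ovarian somatic genes fell. Of 14 macrophage genes 0 passed, and 0 had an unadjusted p under 0.05 or passed by DESeq2 or limma-voom; without MEHP replicate 4, 1 rose. Of 12 mesonephros genes edgeR called 2 falling and 0 rising, DESeq2 0 falling and 2 rising, and limma-voom 1 of each. On the vehicle score 2 rose and 0 fell, so the list has no single direction. Lhx1, the largest fall among genes apart between the ends with a mean of at least 2 CPM, is on that list and had 0.631, 0.79, 1.20, 1.46 and 1.64 CPM at the high end and 6.37, 5.93, 2.33, 2.30 and 2.18 CPM at the low end. Its slope of -0.32 ± 0.11 only just passed (adjusted p = 0.0496), and leaving out 1 library gave up to 0.287 (MEHP replicate 1). The summed mesonephros markers were 105 to 153 CPM at the high end and 114 to 174 CPM at the low end, and the part of attached tissue in the Lhx1 difference was not tested.

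Embryonic globins were lower on average at the high end of the score. Of 13 erythroid genes, 0 were apart in the vehicle ends and 3 fell with the score in the treated libraries, Hbb-y, Hba-x and Hbb-bh1, all of them globins of primitive red cells. Without MEHP replicate 4 only 1 of the 13 fell. Hbb-y had 7.21, 9.01, 22.5, 26.0 and 37.5 CPM at the high end and 54.0, 75.7, 46.7, 70.7 and 36.9 CPM at the low end. The 2 highest-scoring libraries held the least, and only vehicle replicate 5 and replicate 7 crossed. Its slope was -0.64 ± 0.14 (adjusted p = 0.00342). Hba-x averaged 7.28 ± 3.50 against 16.2 ± 3.17 CPM, with a slope of -0.51 (adjusted p = 0.00832; 0.104 without MEHP replicate 4). Hbb-bh1 averaged 0.22 ± 0.10 against 0.44 ± 0.14 CPM, with a slope of -0.64 (adjusted p = 0.0145; 0.207 without MEHP replicate 1 and 0.0769 without MEHP replicate 4). The summed erythroid markers, which include the abundant adult globins, overlapped at 271 to 825 CPM against 321 to 550.1 CPM. Near-identical globin copies can share reads.

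Sample titles carry 2 numbers whose meaning the labels do not state. The second lies under 500 or above it, and all MEHP libraries are in the upper range while all ATRA and MEHP + ATRA libraries are in the lower. The vehicle score averaged 2.44 ± 1.96 (SD, n = 6) in the upper and 1.94 ± 1.24 (n = 9) in the lower range. The difference of 0.50 had an exact two-sided permutation p of 0.553, and it turned to -0.11 without vehicle replicate 3. Within the lower range alone, 322 genes were higher and 22 lower between its 3 high and 4 low libraries. The upper range held 1 low library, which is too few for that comparison.

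Vehicle and treated scores of the same first title number went together. Taking the mean per first number within a range, with vehicle scores centred on their range and treated scores on their treatment, the 9 numbers gave Pearson's r of 0.951 by exact permutation of the numbers within ranges (two-sided p = 0.0101, adjusted over 2 tests 0.0201). Spearman's coefficient was 0.883 (exact permutation p = 0.025). Leaving out the 2 numbers farthest from the median, 1 in each range, gave r of 0.941 (exact permutation p = 0.0486) and a Spearman coefficient of 0.857 (exact permutation p = 0.0694). The ranges hold 5 and 4 numbers, too few for a value within each. The highest vehicle and the highest treated library, vehicle replicate 3 and MEHP replicate 4, share a first number in the upper range.

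**Figure D5:**
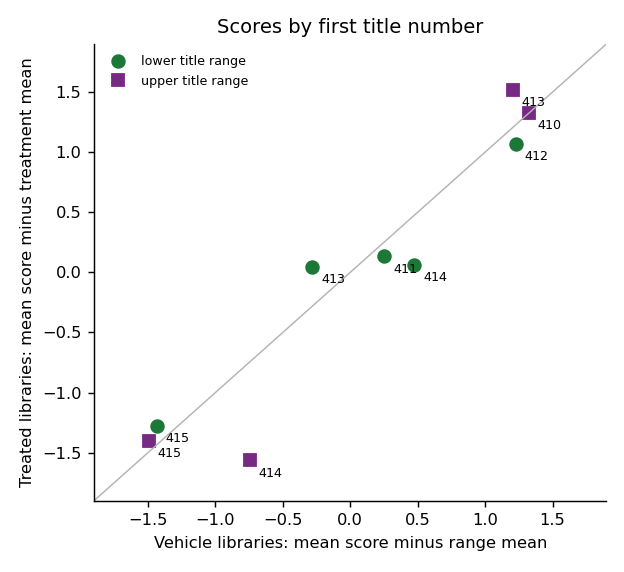
Mean score of vehicle libraries, minus the mean of their title range (horizontal axis), and of treated libraries, minus the mean of their treatment (vertical axis), for the 9 first title numbers, in log2 units; the grey line marks equal values. Numbers low in vehicle libraries are low in treated ones, and the labels beside the points are the numbers in the titles.

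Genes in the treated libraries could therefore be set against a score measured in other libraries. With the mean vehicle score of the same first number within the range as the slope term, 1183 genes rose (6.12% of all genes) and 362 fell (1.87%) in edgeR. Of the higher vehicle genes 270 (65.4%) rose, and of the 18 lower genes 3 fell. Among the piRNA and DNA methylation genes 15 of 25 rose and 0 fell, with 0 falling at an unadjusted p under 0.05. Of 27 pluripotency genes 3 rose and 0 fell, so the falls on the own score were not called on this one. At an unadjusted p under 0.05, 4 of them rose and 5 fell, beside 4697 of 19315 genes in either direction. Of 11 Nodal signalling genes 0 rose and 2 fell, and of 24 proliferation genes 0 rose and 2 fell. Libraries with the same first number within a range share this score, so these p-values may be too small. These calls were lost without the MEHP libraries: in the 9 ATRA and MEHP + ATRA libraries alone edgeR called 0 genes, with 2411 at an unadjusted p under 0.05, and no other tool was run on that subset.

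Slopes on the vehicle score follow for genes described above, each with its SE and adjusted p. Piwil2 had 0.46 ± 0.08 (adjusted p = 0.00487), Tdrd1 0.43 ± 0.08 (0.00699), Fkbp6 0.40 ± 0.07 (0.00487) and Mov10l1 0.39 ± 0.07 (0.00502). Sohlh1 had 0.67 ± 0.13 (0.00595), Dpep3 0.79 ± 0.15 (0.00644) and Cdhr2 0.99 ± 0.23 (0.0158). Among genes that fell, Lefty1 had -0.47 ± 0.10 (0.0114), Ap3b2 -0.42 ± 0.10 (0.0162) and Stra8 -0.35 ± 0.10 (0.034). Dnmt3a (0.09 ± 0.02, 0.00889) and Ddx4 (0.18 ± 0.05, 0.0306) also rose. Nodal (-0.41 ± 0.20, 0.204), Nanos2 (-0.26 ± 0.15, 0.316) and Hbb-y (-0.46 ± 0.21, 0.188) had negative slopes that did not pass.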

How the data were processed

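RNA of 30 cultures was enriched for poly(A) and sequenced after preparation with the NEBNext Ultra II RNA kit, as the labels' protocols state. The authors deposited unnormalized counts of reads per gene, in 1 file for each library. The submitters' processing notes name bcl2fastq 2.20, Trimmomatic 0.36, STAR 2.5.2b, featureCounts of Subread 1.5.2, and DESeq2. Build, annotation release and strand setting were not given in the sources used here, so a gene and an overlapping antisense gene could share reads. Of 49315 genes, 99.3% had a symbol by identifier.

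The tests used edgeR 4.0.16 under R 4.3.3. filterByExpr (minimum count 10) kept 19323 genes, and the 8 score genes were then left out. TMM scaling factors lay between 0.975 and 1.023. Differences between vehicle ends are of mean log2 CPM with a prior count of 2; levels are CPM after TMM scaling. Slopes in the 15 treated libraries came from quasi-likelihood F tests with treatment as a term, two-sided, adjusted by Benjamini and Hochberg's method across 19315 genes, a threshold of 0.05 and 11 residual degrees of freedom. Each standard error is the slope divided by the root of its F. Where no tool is named, an adjusted p is edgeR's. The fits were tested on simulated data. Exact permutations were run in Python 3.11.15.

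The libraries, lists and named genes were chosen with earlier results of these data known. Named genes were the 15 largest rises and 15 largest falls apart between the ends (mean of at least 2 CPM), up to 4 members of each list with the smallest p, and a panel; some of these are given only in counts or not reported here, and 1 of the panel did not pass the filter. Promoters were read from a RefSeq table (GRCm38.p6), which held 68.7% of the genes tested. Alternatives were DESeq2 1.42.0, limma-voom 3.58.1, other scalings, filters, prior counts, scores and library sets, each library left out in turn, and a block on the first title number.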

Additional observations from a re-analysis of the deposited data

How the results depend on the processing

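The counts of genes higher and lower between the vehicle ends were 731 and 51 for 4 against 4 libraries. The lower count was 4 for 6 against 6 and 6 with Dnmt3l out of the score. Leaving out 1 end library gave 376 to 628 higher and 13 to 40 lower. Other scores, scalings, filters and prior counts kept both counts within 1.5 times.

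The slope on the libraries' own score called 2127 rising and 1025 falling genes. Leaving out 1 library gave 1323 to 2223 and 312 to 1107, both lowest without MEHP replicate 4. Without all MEHP libraries the counts were 788 and 178, and without all ATRA libraries 1277 and 184. A replicate block on the first title number left 4 residual degrees of freedom and called 106 and 12, with 2200 genes at an unadjusted p under 0.05; the labels do not say that this number pairs libraries. The share of the higher vehicle genes that rose was 75.0% to 91.2% when vehicle replicate 3, MEHP replicate 4 or both were left out, 54.5% without MEHP libraries and 15.0% with the replicate block, beside backgrounds of 4.08% and 0.549%. The share of the lower genes that fell was 44.4% to 69.2% with those libraries left out, 38.9% without MEHP libraries, 38.9% without ATRA libraries and 11.1% with the block, beside backgrounds of 0.922%, 0.953% and 0.0621% for the last 3. These shares were added after seeing the data, and the causes of the shifts, beyond fewer libraries and degrees of freedom, were not tested.

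The slope on the vehicle score called 1183 and 362 genes. limma-voom with the first number as a random block called 856 falling. Without MEHP libraries edgeR called 0 and 0, with 2411 at an unadjusted p under 0.05. The falling count was 135 without ATRA and 121 without MEHP + ATRA libraries. The score difference between title ranges ran from -0.11 to 1.03, with the negative value without vehicle replicate 3.

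Slopes on the own score that did not pass turned sign in some settings. Kit then had -0.0104 without MEHP replicate 1, -0.0217 without MEHP replicate 4, -0.0317 without MEHP libraries, -0.0231 with the replicate block, -0.00506 with total count as a covariate. Cdkn1b then had -0.0142 without MEHP replicate 1, -0.000485 without ATRA replicate 1, -0.0133 without MEHP replicate 4, -0.0288 without MEHP libraries. Dnmt3b then had 0.00367 without ATRA replicate 1. Pou5f1 then had 0.0226 without MEHP replicate 4. Rec8 then had 0.0296 without ATRA libraries. Sox9 then had 0.00386 without ATRA libraries, 0.039 with the replicate block. Ddx4 then had -0.00633 with the replicate block. Dhh then had 0.00173 with the replicate block. Over the libraries left out in turn, the slopes ran from -0.0142 to 0.0176 for Cdkn1b, -0.0142 to 0.00367 for Dnmt3b, -0.0217 to 0.0162 for Kit, -0.0805 to 0.0226 for Pou5f1.

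Depth of 17551454 counts or more per library leaves genes near 1 CPM, such as Nodal, on few counts. The labels fix no animal or litter, and treatment and title range cannot be told apart in the treated libraries.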

Other observations

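Counts for gene lists outside germ and somatic cell types are set beside the 11% of all genes that rose and the 5.31% that fell, or 6.85% and 1.62% without MEHP replicate 4. Of 15 hypoxia and glycolysis genes, 8 rose with the score in the treated libraries and 0 fell, among them Ldha, Pgk1 and Pdk1, enzymes and a regulator of glucose use; without MEHP replicate 4 the count was 2. No member fell at an unadjusted p under 0.05, and DESeq2 called 9 rising and limma-voom 8. In the vehicle ends 0 of the 15 were apart, and their median difference was 0.12 on the log2 scale. Of 19 immediate early genes, 4 rose (Egr1, Junb, Jund and Nr4a1, transcription factors of acute stimulation) and 0 fell, with 2 rising without MEHP replicate 4; 0 fell at an unadjusted p under 0.05 or by DESeq2 or limma-voom. Of 15 retinoic acid response genes, Crabp1, a retinoic acid binding protein, rose, and Aldh1a3, Cyp26a1 and Dhrs3 fell. In the vehicle ends Crabp1 was higher and Aldh1a2 and Dhrs3 lower with no overlap.

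Scores of single libraries with the same first title number are given as values. The first number shared by vehicle replicate 3 and MEHP replicate 4 held vehicle scores of 1.80 and 5.49 and MEHP scores of 2.11 and 5.36. That of vehicle replicate 6 held vehicle scores of -0.22 and 2.11 and MEHP scores of -0.19 and 1.82. That of vehicle replicate 13 held vehicle scores of -0.53 and 1.54 and ATRA scores of -0.65 and 1.56. That of vehicle replicates 7 and 8 held vehicle scores of 1.56 and 2.82, an ATRA score of 2.31 and a MEHP + ATRA score of 0.57. That of vehicle replicates 1 and 12 held 2.39 and 3.94, with 3.64 for ATRA and 1.10 for MEHP + ATRA. That of vehicle replicates 2 and 9 held 2.13 and 1.19, with MEHP + ATRA scores of 0.64 and 1.21. The numbers with 1 vehicle library within their range were those of replicate 5 (2.41, with 1.79 for ATRA), replicate 10 (3.77, with 3.54 for MEHP) and replicate 11 (1.70, with 0.65 for MEHP).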
